A study of Malus hupehensis and Malus pumila and Malus sylvestris with 10 samples.

Results

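Phenylalanine ammonia-lyase (PAL) removes ammonia from phenylalanine to give cinnamic acid, the entry step of the phenylpropanoid pathway. Lignin, flavonoids and the many phenolic compounds of apple bark are all made downstream of it. In woody stems the lignified cells of phloem and xylem draw on this step, and PAL is usually encoded by several gene copies. Here the levels of 4 PAL copies are described in phloem of the crab apple Malus sylvestris. They were chosen by gene ID, as 4 of the 38700 IDs in the table: MD01G1106900, MD07G1172700, MD04G1096200 and MD12G1116700.

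The study sampled phloem of 5 apple rootstocks 60 days after bud break, in active growth, with 2 samples of each. Values of the 2 M. sylvestris samples were used, wild type and classed in the labels as a vigorous control, with no treatment named. The other 4 rootstocks, the dwarfing A1d, B9 and M9 and the vigorous PYTC, were not analysed here, so no dwarfing rootstock was set against a vigorous one. The labels do not say whether the samples, numbered 1 and 2, came from separate trees, and the spread between them may be technical. Both libraries were scaled by the authors to FPKM, fragments relative to gene length and to the depth of the library. Levels of different copies can thus be set side by side, provided that fragments were counted to the right copy, which was not tested. Depth was worked out from how the FPKM of weakly expressed genes step up by whole fragments, at 18538960 fragments for library 1 and 16572066 for library 2.

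The identity of the copies rests on their IDs. The table pairs no ID with a gene name, and no protein or transcript sequence was at hand to check them, nor could markers of phloem or of neighbouring tissues be looked up. The digits after MD are read as the chromosome number, as is usual for apple IDs of this form, which gives copies on chromosomes 1, 7, 4 and 12. The apple genome carries an old whole-genome duplication, and parts of chromosomes 1 and 7, and of chromosomes 4 and 12, are known as its duplicated counterparts. The gene lengths recovered from the values were 2543 bases for the chromosome 1 copy, 2729 for the chromosome 7 copy, 2630 for the chromosome 4 copy and 2399 for the chromosome 12 copy. All 4 were longer than the median recovered length of 1250 bases. Recovered lengths are the shortest that fit the values, so that median may be too low.

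All 4 copies were transcribed in M. sylvestris phloem, and the chromosome 7 copy was the most abundant. It reached 74.6 and 81.9 FPKM in libraries 1 and 2, or 78.3 ± 5.14 FPKM (SD, n = 2). The chromosome 4 copy stood at 32.2 and 43.2 FPKM in libraries 1 and 2, a mean of 37.7 ± 7.78 FPKM (SD, n = 2). The chromosome 1 copy stood at 30.3 and 36.1 FPKM in libraries 1 and 2, a mean of 33.2 ± 4.12 FPKM (SD, n = 2). The order of these copies was the same in both libraries, with the chromosome 12 copy last. That copy stood at 20.4 and 23.1 FPKM in libraries 1 and 2, a mean of 21.7 ± 1.92 FPKM (SD, n = 2).

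The top and bottom of this order were clear of the other copies in both libraries, while the copies in its middle lay close together. The lower value of the chromosome 7 copy, 74.6 FPKM, lay above the higher value of the chromosome 4 copy, 43.2 FPKM. The higher value of the chromosome 12 copy, 23.1 FPKM, lay below the lower value of the chromosome 1 copy, 30.3 FPKM. The ranges of the chromosome 4 and chromosome 1 copies overlapped when taken over both libraries. Within a library the chromosome 4 copy was the higher both times, with a log2 ratio to the chromosome 1 copy of 0.09 in library 1 and 0.26 in library 2 (0.18 ± 0.12, SD, n = 2). The chromosome 4 copy was also the one that varied most between libraries, with a coefficient of variation of 20.6%, against 12.4% for the chromosome 1 copy, 8.85% for the chromosome 12 copy and 6.56% for the chromosome 7 copy.

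**Figure D1:**
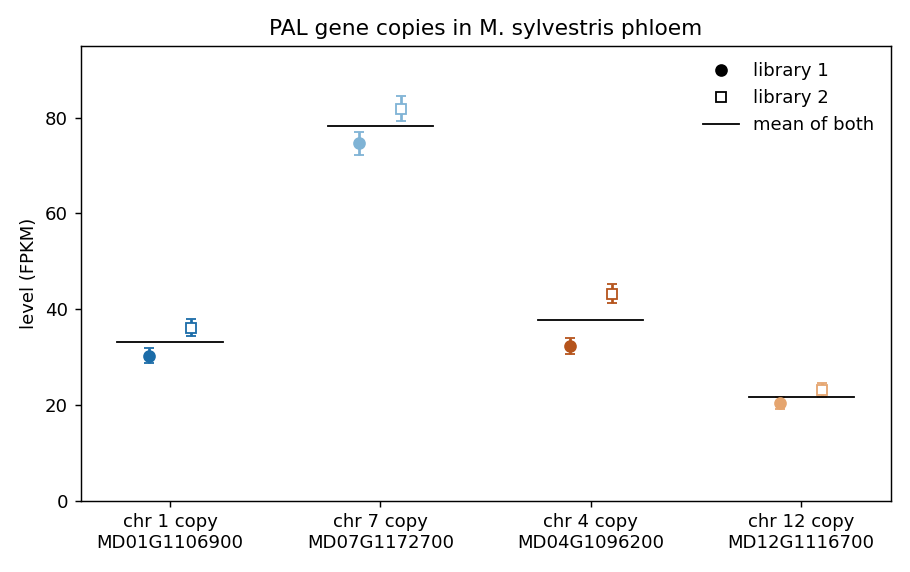
FPKM of each PAL copy in M. sylvestris phloem, with library 1 as filled circles, library 2 as open squares and the mean of both as a horizontal line; bars are 95% Poisson intervals, which cover counting error only. The chromosome 7 copy lies at 74.6 and 81.9 FPKM, above all values of the other copies, and each copy is higher in library 2.

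Each level rested on many fragments. For the chromosome 7 copy 3776 fragments were recovered in library 1 and 3704 in library 2, and for the chromosome 12 copy, the least covered, 906 and 918. Counting error alone therefore gave the chromosome 12 copy a 95% interval of 19.1 to 21.7 FPKM in library 1 and 21.6 to 24.6 FPKM in library 2. These intervals were narrow relative to the differences between copies, apart from that between the chromosome 4 and chromosome 1 copies in library 1, whose intervals were 30.7 to 33.9 and 28.7 to 31.9 FPKM.

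Among all transcripts the PAL copies were well above the middle of the range but none was among the most abundant. By mean level the chromosome 7 copy ranked 1295 of 38700 IDs, with 96.7% of IDs below it. The chromosome 4 copy ranked 3251 and the chromosome 1 copy 3824, above 91.6% and 90.1% of IDs. The chromosome 12 copy ranked 6272, above 83.8% of IDs. Against the median ID, at 4.66 and 4.45 FPKM in libraries 1 and 2, the chromosome 7 copy was 16.0 and 18.4 times as high and the chromosome 12 copy 4.37 and 5.19 times.

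Ranks differed between the libraries most for the chromosome 4 copy and least for the chromosome 7 copy. The chromosome 4 copy ranked 3991 in library 1 and 2757 in library 2, and the chromosome 1 copy 4304 and 3432. The chromosome 7 copy ranked 1361 in library 1 and 1242 in library 2, and the chromosome 12 copy 6727 and 5863. All 4 copies reached 20 FPKM in both libraries, as did 16.6% of all IDs. The chromosome 7 copy alone reached 50 FPKM in both libraries, as did 5.64% of all IDs, and no copy reached 100 FPKM.

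**Figure D2:**
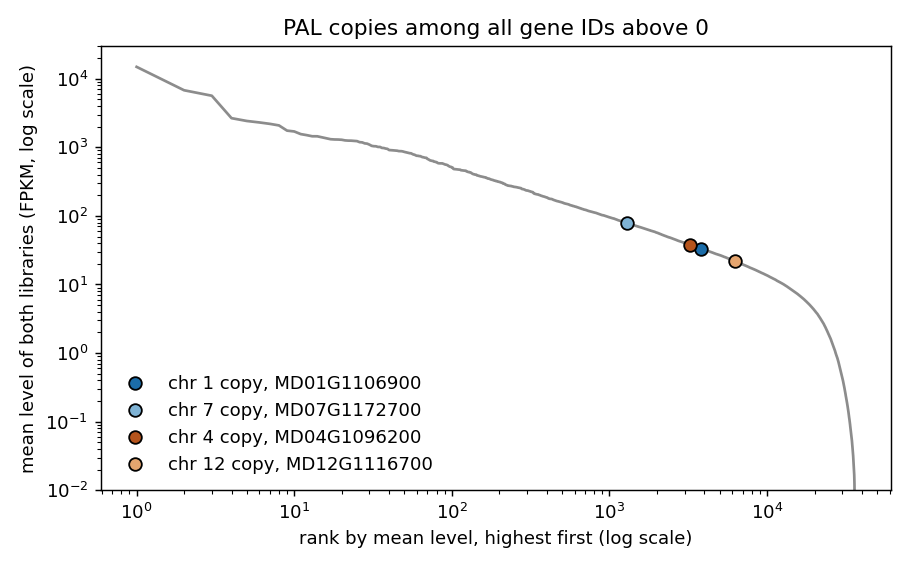
Mean FPKM of both libraries against rank, highest first, for all IDs above 0 (grey line), on log axes, with the 4 PAL copies as coloured points. The copies fall between rank 1295 for the chromosome 7 copy and rank 6272 for the chromosome 12 copy, on the upper part of the curve but below its steep head.

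The position of each copy was similar when it was ranked among IDs of its own chromosome prefix. By that measure the chromosome 7 copy ranked 75 of 2363 IDs, the chromosome 4 copy 154 of 1821, the chromosome 1 copy 192 of 1761 and the chromosome 12 copy 322 of 1907. The IDs beside the copies were mostly lower, as were 83.8% to 96.7% of all IDs. Of the 10 IDs that flank each member in ID order, 5 on each side, none reached the level of the chromosome 1 or the chromosome 7 copy, where the highest flanking means were 17.7 and 10.8 FPKM. At the chromosome 4 copy 1 of 10 was higher, at 126 FPKM, and at the chromosome 12 copy 1 of 10, at 22.2 FPKM. The median over all 40 flanking IDs was 2.64 FPKM, and 3 of the 40 were listed at 0 in both libraries.

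Summed over the 4 copies, PAL transcripts came to 157.5 and 184.3 FPKM in libraries 1 and 2, or 170.9 ± 19.0 FPKM (SD, n = 2). This was 0.0239% of all FPKM in library 1 and 0.0277% in library 2. A single ID at that level would have ranked 490 in library 1 and 413 in library 2. On 7681 and 8028 recovered fragments, the family was covered to a similar extent in both libraries.

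The chromosome 7 copy supplied nearly as much of the family sum as the other 3 copies together. Its share was 47.4% in library 1 and 44.4% in library 2, a mean of 45.9% ± 2.09 (SD, n = 2). The chromosome 4 copy followed with 20.5% and 23.5% in libraries 1 and 2 (22.0% ± 2.12, SD, n = 2). The chromosome 1 copy held 19.2% and 19.6% in libraries 1 and 2 (19.4% ± 0.257, SD, n = 2), and the chromosome 12 copy 12.9% and 12.5% (12.7% ± 0.287, SD, n = 2). The shares of the chromosome 1 and chromosome 12 copies thus moved little between the libraries. The chromosome 4 copy gained about as much share as the chromosome 7 copy lost. Shares sum to a fixed total, and in FPKM the chromosome 7 copy rose from 74.6 in library 1 to 81.9 in library 2.

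**Figure D3:**
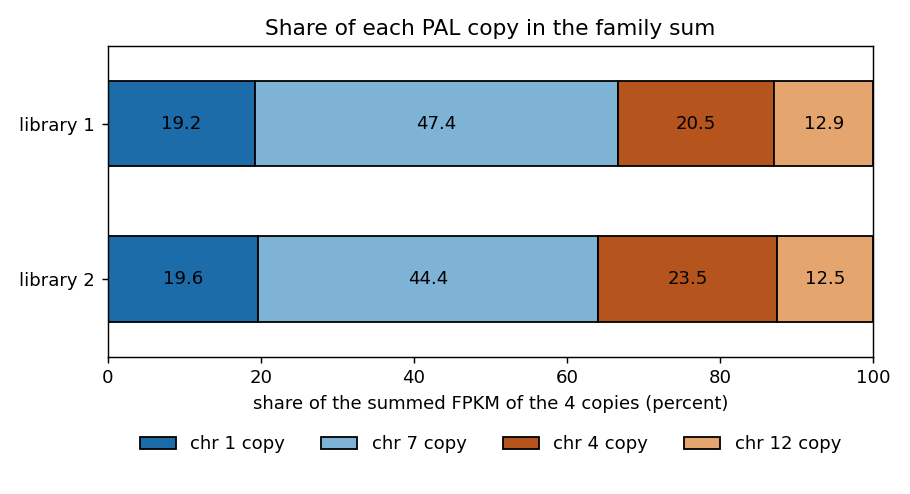
Share of the summed FPKM of the 4 PAL copies taken by each copy, in percent, for each M. sylvestris library. The chromosome 7 copy takes 47.4% and 44.4%, and the chromosome 12 copy takes the smallest share, 12.9% and 12.5%.

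Both duplicate pairs were unequal. In the pair on chromosomes 1 and 7, the chromosome 1 copy stood at 0.406 times the level of the chromosome 7 copy in library 1 (95% exact interval 0.381 to 0.431) and 0.441 times in library 2 (0.415 to 0.468). The log2 ratio was -1.24 ± 0.08 (SD, n = 2). In the pair on chromosomes 4 and 12, the chromosome 4 copy stood at 1.58 times the level of the chromosome 12 copy in library 1 (95% exact interval 1.46 to 1.72) and 1.87 times in library 2 (1.73 to 2.03). The log2 ratio was 0.78 ± 0.17 (SD, n = 2). Every interval excluded equal levels, counting error only, and each ratio lay on the same side of 1 in both libraries. With 2 libraries an exact sign-flip test cannot go below p = 0.5, so no test over libraries was made.

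The pair on chromosomes 1 and 7 together exceeded the pair on chromosomes 4 and 12. The chromosome 1 and 7 copies summed to 104.9 and 118.0 FPKM in libraries 1 and 2. For the chromosome 4 and 12 copies the sums were 52.6 and 66.3 FPKM. The ratio of these sums was 1.99 in library 1 and 1.78 in library 2, a log2 ratio of 0.91 ± 0.12 (SD, n = 2). Within the higher pair the chromosome 7 copy alone, at 74.6 and 81.9 FPKM, exceeded the sum of the chromosome 4 and 12 copies in both libraries.

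Across the pairs, neighbours in the order of levels were also compared. At the head of the order, the chromosome 7 copy stood at 2.31 times the chromosome 4 copy in library 1 (95% exact interval 2.18 to 2.46) and 1.89 times in library 2 (1.79 to 2.003). The chromosome 4 copy stood at 1.07 times the chromosome 1 copy in library 1 (0.991 to 1.15) and 1.20 times in library 2 (1.12 to 1.28). The first of these intervals included equal levels and the second did not. The chromosome 1 copy stood at 1.49 times the chromosome 12 copy in library 1 (1.37 to 1.62) and 1.56 times in library 2 (1.44 to 1.70). From the highest to the lowest copy, chromosome 7 against chromosome 12, the ratio was 3.66 in library 1 and 3.55 in library 2.

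**Figure D4:**
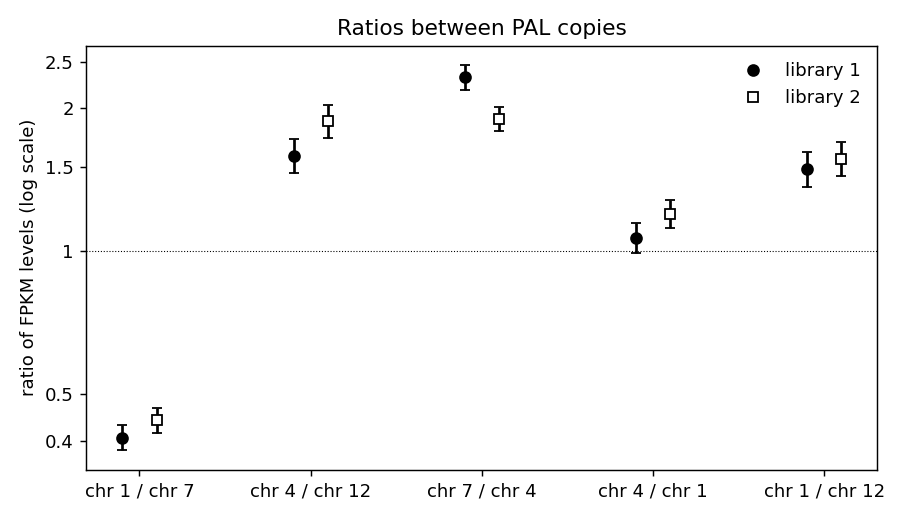
Ratios of FPKM between PAL copies in library 1 (filled circles) and library 2 (open squares) on a log axis, for the duplicate pairs and for neighbours in the order of levels; bars are 95% exact intervals from the recovered fragments and the dotted line marks equal levels. The ratio of the chromosome 4 to the chromosome 1 copy is nearest to equal, at 1.07 and 1.20, and the chromosome 1 to chromosome 7 ratio is the only one below 1, at 0.406 and 0.441.

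Each copy was higher in library 2 than in library 1 by a modest amount. Library 2 stood at 1.34 times library 1 for the chromosome 4 copy (95% exact interval 1.25 to 1.44), 1.19 times for the chromosome 1 copy (1.11 to 1.28), 1.13 times for the chromosome 12 copy (1.03 to 1.24) and 1.10 times for the chromosome 7 copy (1.05 to 1.15). All 4 copies passed a two-sided exact binomial test on the recovered fragments with Benjamini-Hochberg adjustment over all 30589 IDs with 10 or more fragments. The adjusted p ranged from 5.63e-16 for the chromosome 4 copy to 0.0492, close to the threshold of 0.05, for the chromosome 12 copy. Of all IDs tested, 6.32% were called higher and 9.02% lower in library 2, or 15.3% in either direction. At 20 to 100 FPKM, the range that holds the 4 copies and was chosen with their levels known, 12.7% of 5888 IDs were called higher in library 2 and 24.7% in either direction. Recovered fragments are the fewest possible, which can keep an ID from being called, so these shares of IDs may be too low. The test compares these libraries and not conditions, and its p-values cover counting error only, since they treat fragments as independent molecules.

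The differences were small, and that of the chromosome 4 copy was the largest of the 4. On the log2(FPKM + 1) scale, library 2 minus library 1 was 0.41 for the chromosome 4 copy, 0.25 for the chromosome 1 copy, 0.17 for the chromosome 12 copy and 0.13 for the chromosome 7 copy, with a median of 0.21. The median over all tested IDs was -0.02. Among the 5888 IDs at 20 to 100 FPKM the SD of the difference was 0.22, so the chromosome 4 copy lay 1.84 SD from 0 and the other copies 0.590 to 1.10 SD. Of those IDs, 2.02% were further up in library 2 than the chromosome 4 copy, 8.80% further up than the chromosome 1 copy, 15.1% further up than the chromosome 12 copy and 20.2% further up than the chromosome 7 copy. Counted in either direction, 288 of the 5888 IDs lay further from 0 than the chromosome 4 copy and 977 than the chromosome 1 copy. For the chromosome 12 and chromosome 7 copies these counts were 1652 and 2289.

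**Figure D5:**
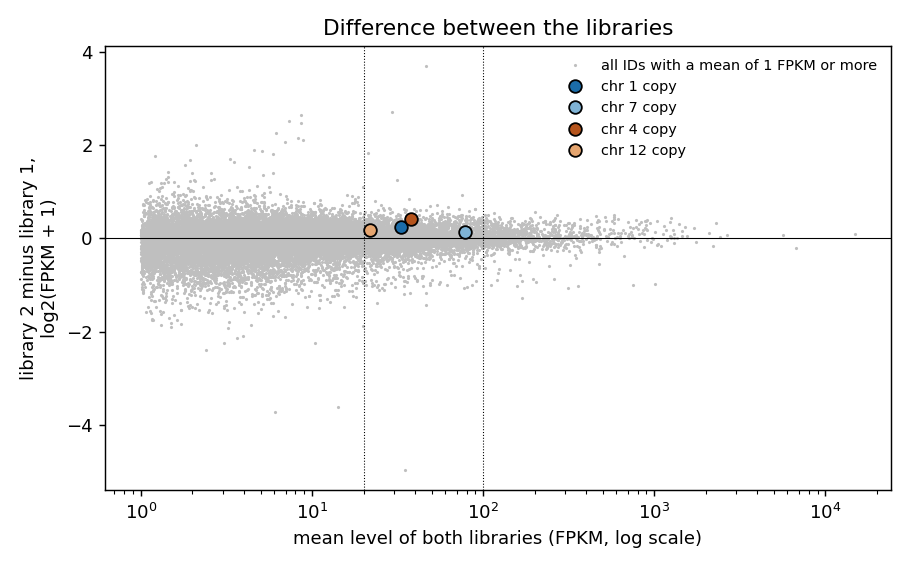
Library 2 minus library 1 in log2(FPKM + 1) against the mean level in FPKM (log axis) for all IDs that average at least 1 FPKM (grey) and the 4 PAL copies (coloured); dotted lines mark 20 and 100 FPKM. The copies lie at 0.13 to 0.41, all above 0, with other IDs of like level on both sides of them.

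The ratio within each duplicate pair was also set against itself in the other library, with counting error as the only error at hand. The ratio of the chromosome 4 to the chromosome 12 copy was 1.18 times as high in library 2 as in library 1 (95% exact interval 1.05 to 1.33). The ratio of the chromosome 1 to the chromosome 7 copy was 1.09 times as high (0.997 to 1.18), an interval that included no shift. Of single IDs at 20 to 100 FPKM, 24.7% differed between these libraries beyond counting error at an adjusted p under 0.05. That limit is stricter than the unadjusted intervals given here for ratios, and the same share over pairs of IDs was not computed. Whether the shifts of the pairs differed from each other was not tested. Across the pairs, the ratio of the chromosome 7 to the chromosome 4 copy in library 2 was 0.818 times that in library 1 (0.754 to 0.888), and the ratio of the chromosome 7 to the chromosome 12 copy was 0.968 times (0.873 to 1.07). The ratio of the chromosome 4 to the chromosome 1 copy was 1.125 times (1.02 to 1.24). For the chromosome 1 to the chromosome 12 copy it was 1.05 times (0.934 to 1.18). Every interval that left out no shift was of a ratio with the chromosome 4 copy, so these shifts are not separate results. No source used here says to which copy a fragment was counted when it matched more than 1. The balance between the copies is therefore uncertain, and how alike their sequences are could not be checked. As bulk phloem was sampled, fewer cells using a copy and less RNA per cell cannot be told apart.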

How the data were processed

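RNA of M. sylvestris phloem was extracted with a miRNA isolation kit that keeps total RNA, and libraries were prepared with a stranded mRNA kit, per the labels' protocols. The authors deposited FPKM, per the labels, scaled by gene length and library total. The submitters' processing notes name HISAT2, HTSeq, Cufflinks and Trimmomatic, with no role or version, the genome build and annotation being not given in the sources used here. IDs of this form are used for domestic apple, and reads of M. sylvestris may match the copies unequally, which was not tested.

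Values were used as deposited. The total of library 1 was the largest value that made gene lengths whole, within 0.003 bases, for 65% or more of the IDs scored. Those were a subset of weakly expressed IDs with irreducible ratios. The total of library 2 was set from the most common ratio between the libraries among IDs below 1 FPKM, shared by 738 IDs. It put the depth of library 2 at 0.894 times that of library 1, which the binomial test took as no difference. Each ID was given the shortest length, between 50 and 30000 bases, at which both libraries had whole fragments, within 0.0005 fragments plus rounding. All 35889 IDs above 0 came out whole, and their sum was 90.2% of each total. For an ID above 0 in a single library only that value had to be whole, so coming out whole says little there. A length that shares a factor with the fragments is read too short, so recovered fragments are the fewest possible. Recovery and test were tested on simulated data, drawn with counting error only from the recovered fragments and lengths. Such data cannot show how the test behaves where libraries differ beyond counting error. Intervals (95%) cover counting error only. They are Poisson for levels and Clopper-Pearson for ratios between copies in a library or of a copy between libraries. For the shift of a ratio between the libraries they are exact conditional intervals of an odds ratio. Analyses used Python 3.11.15, numpy 2.4.6 and scipy 1.17.1. The copies, lists and tests were chosen with earlier results of these data known. Lists of other pathway genes and of tissue markers could not be applied without gene names, and no sequence is shown.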

Additional observations from a re-analysis of the deposited data

How the results depend on the processing

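When only IDs that average at least 1 FPKM were ranked, in place of all listed IDs, the percentile of the chromosome 7 copy was 95.2, that of the chromosome 4 copy 88.0, that of the chromosome 1 copy 85.9 and that of the chromosome 12 copy 76.9, since IDs at low levels no longer count below them. With 1 library alone, the log2 ratios within and between the duplicate pairs kept their sign; with 2 libraries such values always lie within 1 SD of their mean. Pseudocounts of 0.1 and 1 FPKM moved the log2 ratios within the pairs by less than 1 SD, as did fragments not divided by length (0.98 in place of 0.91) the one between the pairs. After rescaling by the median ratio of the libraries, a shift of -0.02 on the log2 scale, all 4 copies were still called higher in library 2, with an adjusted p of 0.0246 for the chromosome 12 copy, and 4710 IDs were called in place of 4692. With a minimum of 20 fragments 4685 were called. Counting error left some comparisons near their limits: the ratio of the chromosome 4 to the chromosome 1 copy in library 1 (0.991 to 1.15), the shift of the chromosome 1 to chromosome 7 ratio (0.997 to 1.18) and the adjusted p of 0.0492 for the chromosome 12 copy. No paired analysis was possible because values of a single rootstock were analysed.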
